A study of Mus musculus with 4 samples.

Results

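The genes described here encode the proteasome, the protease that degrades proteins tagged with ubiquitin. They were chosen by name: every symbol that starts with Psma, Psmb, Psmc, Psmd, Psme, Psmf or Psmg followed by a digit, read on a probe set listed for that symbol alone, with the brightest probe set standing for the gene. The rule matched 50 symbols on the array. Of these, 48 had a probe set of their own, out of 12393 genes with one, and 47 gave signal above the detection floor on all 4 arrays. The floor is a signal of 93.9, below which 40% of non-control values lie, and 8596 genes exceeded it on at least 1 array and were tested. Psma8, a testis-specific alpha subunit, was below the floor on all 4 arrays with signals of 2.6 to 28.4. Psme2 and Psme2b were listed only together on 1 shared probe set and have no value of their own. A pair matched by name alone and is kept out of the proteasome counts: Psmc3ip, a factor of meiotic recombination, and Psme3ip1, which binds a proteasome activator. That left 45 proteasome genes, of which 4 (Psmb8, Psmb9, Psmb10 and Psme1) belong to the 5 immunoproteasome symbols of the rule.

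The study set T cells of mice labelled Gfi1 knockout beside those of mice labelled wildtype, both of the C57Bl/6 strain. Gfi1 is a zinc finger repressor of transcription that acts in lymphocyte development. Splenocytes were sorted by flow cytometry on CD44, CD4 and CD8, and all 4 samples are labelled CD44 low, untreated. The groups were CD4 cells labelled knockout, CD8 cells labelled knockout, CD4 cells labelled wildtype and CD8 cells labelled wildtype, with 1 Affymetrix MOE430A_2.0 array each. Each array carried pooled RNA of 2 mice, so no array measures a single animal and no group has a replicate. The sources used here do not name the knockout allele or the age and sex of the mice.

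The proteasome is built from a barrel, the 20S core, and caps that feed it. The outer alpha rings gate the barrel and the inner beta rings cut, with the active sites on Psmb5, Psmb6 and Psmb7. In lymphocytes, and in other cells exposed to interferon-gamma, these sites are largely replaced by Psmb8, Psmb9 and Psmb10, which gives the immunoproteasome and peptides that fit MHC class I. The 19S cap carries ATPases that unfold the substrate (Psmc genes) and subunits that bind and remove ubiquitin (Psmd genes), while Psme1 and Psme2 form the alternative cap PA28.

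The immunoproteasome genes Psmb8 and Psmb9 lie inside the MHC region beside the peptide transporter genes Tap1 and Tap2, and their start regions are shown because this arrangement frames the comparison of CD8 with CD4 cells. In RefSeq on GRCm38.p6, chromosome 17 holds Psmb9 at bases 34182030 to 34187330, Tap1 at 34187556 to 34197225, Psmb8 at 34198195 to 34201454 and Tap2 at 34204479 to 34216321. Psmb9 and Tap1 are transcribed away from each other, and 225 bases separate their first bases. That whole stretch (chr17:34187331-34187555, plus strand, reading from Psmb9 towards Tap1) is printed first, with a CCAAT box and a GC box (GGGCGG, here on the minus strand) in capitals. The 150 bases before Psmb8 (chr17:34198045-34198194, plus strand) follow, with a match to the gamma-activated site pattern TTCNNNGAA in capitals. The 150 bases before Psmb5 (chr14:54617996-54618145, minus strand), the standard subunit that Psmb8 replaces, come last, with a match to the antioxidant response core TGACNNNGC in capitals.
Psmb9-Tap1: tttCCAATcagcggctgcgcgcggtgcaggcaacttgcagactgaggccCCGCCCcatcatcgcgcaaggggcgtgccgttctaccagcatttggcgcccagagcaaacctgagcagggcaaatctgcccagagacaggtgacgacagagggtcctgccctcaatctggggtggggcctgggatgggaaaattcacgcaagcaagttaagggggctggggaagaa
Psmb8: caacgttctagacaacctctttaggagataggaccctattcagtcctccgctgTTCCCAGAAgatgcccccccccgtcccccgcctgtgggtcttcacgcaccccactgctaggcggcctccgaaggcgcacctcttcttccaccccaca
Psmb5: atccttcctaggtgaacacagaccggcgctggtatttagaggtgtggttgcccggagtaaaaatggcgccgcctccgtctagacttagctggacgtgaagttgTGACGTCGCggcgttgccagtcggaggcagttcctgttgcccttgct

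RefSeq promoter windows, from 250 bases before to 50 bases after the start, were matched for 39 of 47 symbols searched, as 42 windows, and patterns were searched on both strands. The gamma-activated site pattern was in 7.14% of the members' windows (Psmb8, Psmd2 and Psmg1) and in 8.30% of all 32851 windows. The interferon-stimulated response pattern, GAAA repeated after a gap of NN, was in 11.9% (Psmb3, Psmd4, Psmd9, Psme1 and Psmg4) and in 3.44% of all windows. The antioxidant response core was in 14.3% of the members' windows and in 12.4% of all. The GC box was in 57.1% of the members' windows against 35.7% of all, and CCAAT in 31.0% against 37.4%. These are matches of letters only.

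The labels were set against the genes that define them. Cd4 gave 5470 and 5901 on the CD4 arrays labelled knockout and wildtype and was below the floor on both CD8 arrays. Cd8a gave 16639 and 15920 on the CD8 arrays labelled knockout and wildtype and was below the floor on both CD4 arrays. Gfi1 itself, read by 1 probe set, was not lower on the arrays labelled knockout: its signal was 2891 in CD4 and 2447 in CD8 cells there, against 2272 and 1158 on those labelled wildtype. The sources used here do not say whether that probe set lies in the deleted part, so it does not check the genotype, and the groups are called by their labels throughout. Cd44, the gene of the sort marker, was at 196 and 252 on the arrays labelled knockout (CD4, CD8) and at 8136 and 5740 on those labelled wildtype. All 4 samples carry the same CD44 low label. The title of each knockout sample ends in N and of each wildtype sample in M, with no explanation of the letters. Of 14 cell cycle genes tested, 12 were at least 1.5-fold lower on the arrays labelled knockout in both subsets, with medians of -3.05 (CD4) and -1.43 (CD8) on the log2 scale. The summed signal of 4 MHC class II genes was 46620 on the wildtype CD8 array and 1443 to 4034 on the other three. Cd74, the invariant chain of class II, gave 16735 on that array. Among the cell cycle genes, Mki67, Rrm2, Bub1b and Aurka differed by -3.90, -4.46, -2.92 and -2.72 in CD4 and by -1.61, -1.75, -2.12 and -1.57 in CD8 cells.

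Markers of other cell types also differed with the label. Klrk1, an activating receptor of natural killer and effector T cells, gave 66 and 113 on the arrays labelled knockout (CD4, CD8) against 1742 and 1511 on those labelled wildtype, with a limma adjusted p of 0.011. It was the only marker of its list above the floor; Ncr1 was below it on all 4 arrays. Of 3 B cell markers above the floor, Cd22 gave 154 and 76 against 1124 and 615, with a limma adjusted p of 0.029, and Cd79b gave 57 and 738 against 305 and 759. The summed B cell marker signal was 287 and 903 against 1578 and 1722, while the defining genes Cd79a and Ms4a1 were below the floor on all 4 arrays. The summed signal of 4 macrophage and monocyte markers was 265 to 696, highest on the wildtype CD8 array, where Lyz2 gave 285. No erythroid marker was above the floor. The T cell genes Cd3e and Cd3d differed by 0.02 and 0.36 in CD4 and by 0.06 and 0.01 in CD8 cells. The part of these Cd44, cell cycle and marker differences in any result below was not tested.

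The proteasome genes were among the steadier genes on these arrays. The highest of the 4 arrays was less than 1.5-fold above the lowest for 44 of the 45, whereas 59.9% of all tested genes and 77.5% of the 3905 genes at least as bright on every array as the dimmest member (786 for Psmd9) kept within that range. Those 3905 genes, called equally bright here and below, share only that lower bound. Their brightness above it was not matched to that of the members. The median range was 1.19-fold for the members, 1.29-fold for the equally bright genes and 1.396-fold for all genes. Psmd5, a chaperone that helps to assemble the 19S base, had the narrowest range, from 2184 to 2266. Psmg4, a chaperone of the alpha ring, had the widest, 1.80-fold. In these bulk samples, fewer cells of a type and less RNA per cell cannot be told apart.

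**Figure D1:**
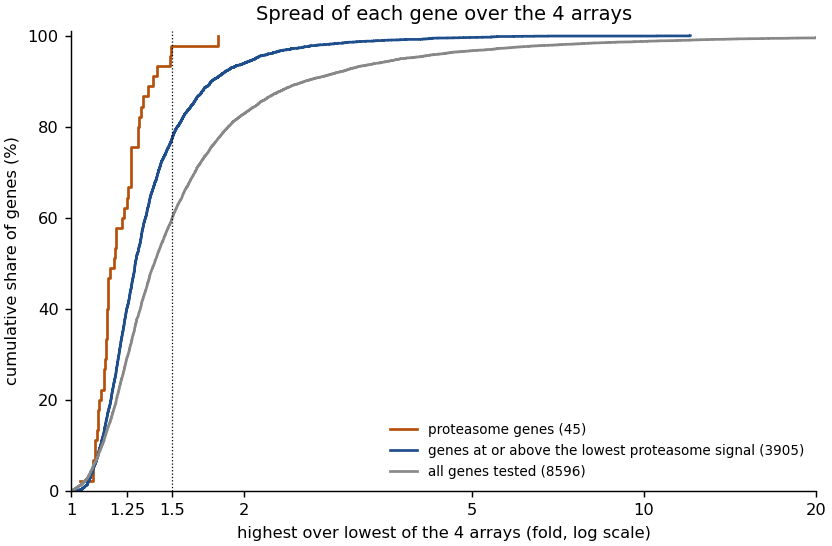
Cumulative share of genes (vertical axis, percent) by the ratio of the highest to the lowest of the 4 arrays (horizontal axis, log scale), for 45 proteasome genes, the 3905 genes at least as bright as the dimmest of them and all 8596 genes tested. At the dotted line of 1.5-fold the proteasome curve is at 97.8%, the equally bright genes at 77.5% and all genes at 59.9%.

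Between the genotype labels, the members were on balance slightly higher on the arrays labelled knockout. The median log2 difference, knockout minus wildtype label, was 0.15 (CD4 cells) and 0.07 (CD8 cells), against 0 over all tested genes in both and 0.06 and 0.02 over the equally bright genes. In CD4 cells 30 of 45 were above 0 (66.7%), against 45.4% of all genes and 56.9% of the equally bright genes. In CD8 cells 37 of 45 were (82.2%), against 44.4% and 54.7%. The shares over all genes are lowered by genes at the floor on both arrays, whose difference is exactly 0. Both subsets were above 0 for 27 members (26.2% of all genes, 1423 of the 3905 equally bright ones). Both were below 0 for 5 (28.2% of all genes, 968 of the equally bright ones). The signs were opposite for 13 (2935 of all 8596 genes, 1513 of the equally bright ones). The CD4 array labelled knockout held the highest signal for 18 members, against 24.2% of all genes and 30.2% of the equally bright ones. The wildtype CD4 array held the lowest signal for 19 members, against 26.2% of all and 35.9% of equally bright genes, and the wildtype CD8 array for 16, against 17.4% and 21.3%.

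The differences were small. Only Psmg4 was at least 1.5-fold higher in CD4 cells (7.29% of all genes were), no member was 1.5-fold lower there (14.6% of all genes), and in CD8 cells no member was 1.5-fold higher (4.14% of all genes) or lower (9.21%). Of the 3905 equally bright genes, fewer passed: 218 higher and 229 lower in CD4 cells, and 60 and 84 in CD8 cells. No member was 1.5-fold higher in both subsets, as 1.35% of all genes were. The model fitted to the 4 arrays, limma with subset and genotype label as terms, called 0 of the 45 for the genotype label at an adjusted p under 0.05, Benjamini-Hochberg over 8596 genes, of which it called 0.547%. At an unadjusted p under 0.05 it listed 3 members (Psmb6, Psmc4 and Psmg4), where 13.1% of all genes passed. With each array centred on its median, 25 members passed at that unadjusted level, and none after adjustment. That scaling also moved the median of all tested genes, to 0.25 (CD4) and 0.17 (CD8). The share of all genes passing under it was not counted, so the 25 cannot be weighed. The error of the limma fit joins the difference between the subsets with a prior from other genes and holds no spread between animals. A scale for reading single genes comes from the 17 members with several probe sets above the floor: probe sets of 1 gene differed with a pooled SD of 0.22 in CD4 and 0.12 in CD8 cells, close in size to the SD over members, 0.25 and 0.15.

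**Figure D2:**
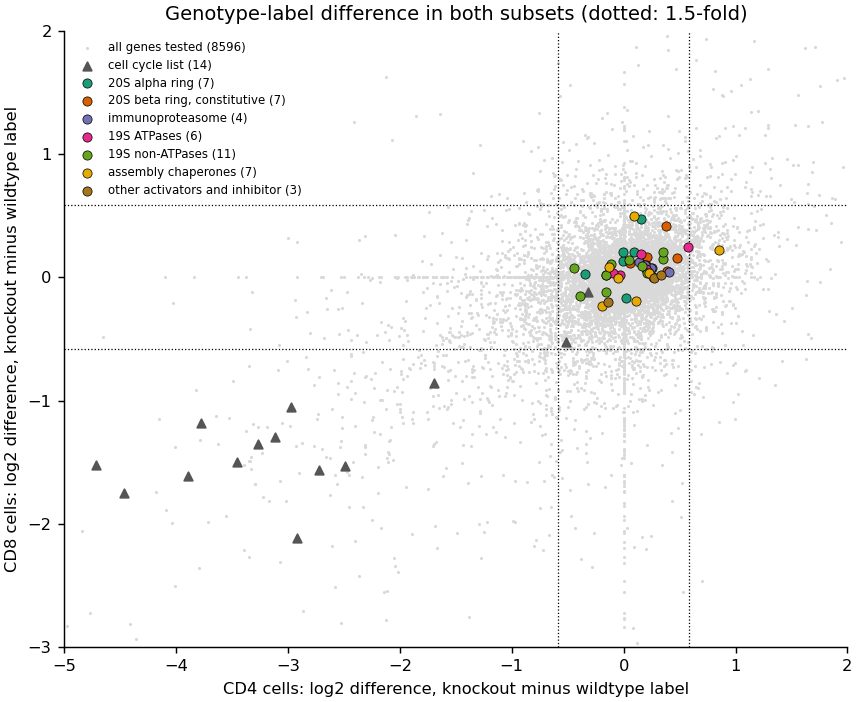
Log2 difference, knockout minus wildtype label, in CD4 cells (horizontal axis) and CD8 cells (vertical axis), for 45 proteasome genes coloured by role, 14 cell cycle genes (triangles) and all tested genes (grey, those beyond the axes not drawn); dotted lines mark 1.5-fold. The proteasome genes lie near the origin, with Psmg4 alone past 1.5-fold in CD4 cells, while 12 of the 14 cell cycle genes lie past it on the lower side in both subsets.

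Of the immunoproteasome, 4 of 4 genes were higher on the array labelled knockout in both subsets, all by less than 1.5-fold. Both subsets were also above 0 for 23 of the 41 other members, 1423 of the 3905 equally bright genes and 26.2% of all genes. The immunoproteasome had a median log2 difference of 0.22 in CD4 and 0.09 in CD8 cells. The other 41 members had medians of 0.11 and 0.07. With quantile normalization the CD4 medians were 0.07 for the immunoproteasome and 0.08 for the others, so the larger immunoproteasome value did not hold under that scaling. Psmb8, the chymotrypsin-like subunit of the immunoproteasome, gave 13892 (CD4, knockout label), 13931 (CD8, knockout label), 11704 (CD4, wildtype label) and 13196 (CD8, wildtype label). Its wildtype CD4 array was the low one, and its differences were 0.25 in CD4 and 0.08 in CD8 cells. Psmb9, which takes the place of the caspase-like subunit, gave 9965, 8856, 9058 and 8130 in the same order. Here the CD4 arrays stood above the CD8 array of the same label, and the label differences were 0.14 and 0.12.

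Psmb10, which takes the place of the trypsin-like subunit, gave 7943, 7608, 6012 and 7363 in that order, with the wildtype CD4 array again the low one. Its difference of 0.40 in CD4 cells was the widest of the 4 immunoproteasome genes, and in CD8 cells it was 0.05. Psme1, the alpha chain of PA28, gave 17848, 17549, 15595 and 16387, differences of 0.19 and 0.10. Limma's adjusted p for the genotype label was 0.580 for Psmb10 and between 0.711 and 0.763 for the others. Each of these 4 genes had 1 probe set, so none has a second reading. The probe set listed for both Psme2 and Psme2b gave 15221, 16308, 12629 and 13970.

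**Figure D3:**
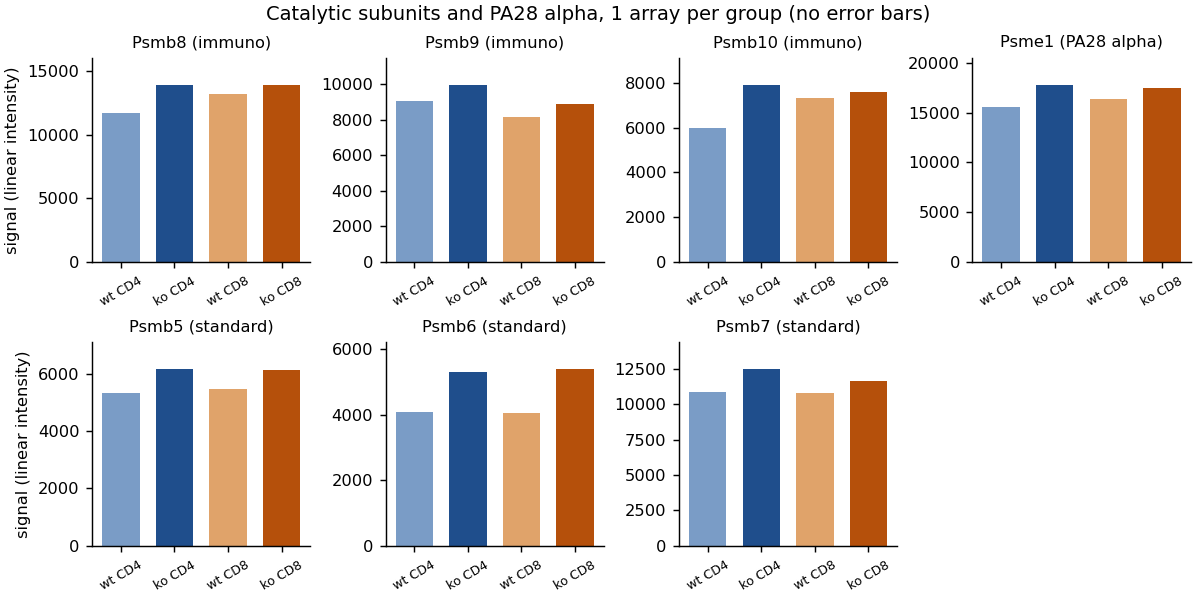
Signal (linear intensity, vertical axes from 0) of 3 immunoproteasome catalytic subunits and Psme1 (upper row) and the 3 standard subunits they replace (lower row) on the 4 arrays, 1 bar per array and no error bars. Psmb6 is higher on both arrays labelled knockout (5290 and 5401) than on both labelled wildtype (4069 and 4054), and Psmb8 and Psmb10 are lowest on the wildtype CD4 array.

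The 3 standard catalytic subunits were also higher on the arrays labelled knockout in both subsets. Psmb5 gave 6188 (CD4) and 6128 (CD8) on the arrays labelled knockout against 5341 and 5469 on those labelled wildtype, differences of 0.21 and 0.16. Psmb7 gave 12505 and 11633 against 10856 and 10819, differences of 0.20 and 0.10. Psmb6 gave 5290 and 5401 against 4069 and 4054, so that both arrays labelled knockout lay above both labelled wildtype by near equal amounts, 0.38 and 0.41. It had the lowest adjusted p of the 45 members in the limma fit, 0.229, with an estimate of 0.40 ± 0.12 (SE), and was not called. The difference of the immunoproteasome gene minus that of its standard counterpart was 0.03 (CD4) and -0.09 (CD8) for Psmb8 with Psmb5 and 0.20 and -0.06 for Psmb10 with Psmb7. For Psmb9 with Psmb6 it was -0.24 and -0.29.

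The remaining beta subunits are structural. Psmb1 gave 12386 (CD4, knockout label), 13290 (CD8, knockout label), 8925 (CD4, wildtype label) and 11926 (CD8, wildtype label), again with wildtype CD4 as the low array, and its differences were 0.47 and 0.16. Psmb4 differed by 0.38 and 0.05, Psmb3 by 0.06 and 0.12, and Psmb2 by -0.16 and 0.02. All 7 standard beta subunits were above 0 in CD8 cells, between 0.02 and 0.41, and 6 of 7 were in CD4 cells, but Psmb2 was at -0.01 in CD8 cells with quantile normalization. A second bright probe set of Psmb3 gave -0.11 and -0.07, opposite to the chosen one. Over the 17 members with several probe sets, 8 of 25 further probe sets had the opposite sign in CD4 and 6 in CD8 cells. The alpha rings had medians over 7 subunits of 0.02 (CD4) and 0.14 (CD8), and 4 and 6 of them were above 0. Psma6 gave 14088, 14767, 12663 and 10647 in the same array order, differences of 0.15 and 0.47, with the wildtype CD8 array the low one. Psma7 differed by 0.26 and 0.07, Psma5 by 0.02 and -0.17, and Psma1 by -0.35 and 0.03.

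Among the 6 ATPases of the 19S cap, the hexamer that unfolds the substrate, the medians were 0.18 (CD4) and 0.06 (CD8). Psmc4 gave 9325, 8424, 6246 and 7094 in the same array order, so both arrays labelled knockout were above both labelled wildtype, by 0.58 and 0.25. The limma estimate was 0.41 ± 0.14 (SE) with an adjusted p of 0.287. A second probe set of Psmc4 gave smaller differences, 0.25 and 0.22. Psmc6 differed by 0.15 and 0.19, Psmc1 by -0.03 and 0.02, and Psmc2 by -0.10 and 0.03.

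The 11 other subunits of the cap, which form its scaffold or bind or remove ubiquitin, had medians of 0.05 and 0.07. Psmd7, the partner of the deubiquitinase, differed by 0.35 (CD4) and 0.21 (CD8), and Psmd13 by 0.35 and 0.15. On the other side, Psmd11 gave 7043 and 7043 on the arrays labelled knockout (CD4, CD8) against 9248 and 7813 on those labelled wildtype, differences of -0.39 and -0.15. The 3 further Psmd11 probe sets with signal above the floor throughout gave -0.35, -0.19 and 0.09 in CD4 cells. Psmd1, a large scaffold subunit, differed by -0.45 in CD4 and 0.07 in CD8 cells. Limma's adjusted p was 0.467 for Psmd11 and 0.723 for Psmd1.

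The 7 assembly chaperones had medians of 0.10 and 0.04 and held both the widest and the narrowest member. Psmg4 gave 1799 (CD4, knockout label), 1631 (CD8, knockout label), 999 (CD4, wildtype label) and 1401 (CD8, wildtype label), with differences of 0.85 and 0.22 and a limma adjusted p of 0.340. Psmd10, also known as gankyrin, differed by 0.10 and 0.50, its wildtype CD8 array being the low one (1590). Psmg3 differed by -0.19 and -0.23, and Psmg1 by 0.11 and -0.20. Of the other activators and the inhibitor, Psme3 (PA28 gamma, found in the nucleus) differed by -0.14 and -0.20. Psme4, the activator PA200, differed by 0.27 and -0.01, and Psmf1, the inhibitor PI31, by 0.33 and 0.02.

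Outside the complex but inside the rule, Psmc3ip gave 199 and 183 on the arrays labelled knockout (CD4, CD8) and 334 and 370 on those labelled wildtype, differences of -0.74 and -1.02. It was the only symbol of the 47 past 1.5-fold in both subsets, where 4.71% of all genes were at least 1.5-fold lower, and its limma adjusted p was 0.291. Psme3ip1 differed by 0.16 and -0.04.

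Between the subsets, CD8 minus CD4, no member passed 1.5-fold under either label. Over all genes, 8.72% were higher and 11.3% lower in CD8 cells on the wildtype arrays, and 6.39% and 5.12% on the knockout arrays. The medians of the 45 were -0.00 and -0.01, and limma called 0 for the subset term (0.244% of all genes), with 0 at an unadjusted p under 0.05 (9.56% of all genes). The immunoproteasome medians were 0.12 on the wildtype and -0.04 on the knockout arrays, the latter 0.0031 with quantile normalization. Psmb9 was lower in CD8 than in CD4 cells under both labels, with differences of -0.16 (wildtype) and -0.17 (knockout). Its limma adjusted p for the subset was 0.743. Both differences lie within the pooled SD between probe sets of 1 gene for these contrasts, 0.21 (wildtype) and 0.20 (knockout). Tap1, which starts across the printed 225 bases, gave 5624 in CD4 and 4506 in CD8 cells on the wildtype arrays and 5937 and 4882 on the knockout arrays. Its differences were -0.32 and -0.28, with an adjusted p of 0.511. Tap2 was also lower in CD8 cells, with differences of -0.11 and -0.36, whereas Psmb8, which lies between the transporter genes, differed by 0.17 and 0.00. The signs of Psmb9, Tap1 and Tap2 were kept under quantile normalization and median centring. Whether these neighbouring genes are regulated together was not tested. On the wildtype CD8 array, the one with high MHC class II signal, the 5 dendritic cell markers tested had a summed signal of 2094, against 219 to 406 on the other three, all 5 at least 1.5-fold higher than on the wildtype CD4 array.

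The rest of the MHC class I machinery also stayed under 1.5-fold between the labels. None of 11 genes tested, of 12 listed, passed 1.5-fold between the labels in either subset, and their medians were 0.11 in both. Of all genes, 21.9% (CD4) and 13.4% (CD8) passed it in either direction, and of the equally bright genes 11.4% and 3.69%. Tapbp, which bridges the transporter and class I, differed by 0.27 and 0.20, Calr, a chaperone of class I, by 0.35 and 0.11, and B2m, the class I light chain, by 0.08 and 0.01. Between the subsets, Erap1, the peptidase that trims peptides for class I, gave 1177 (CD4) and 1783 (CD8) on the wildtype arrays and 1335 and 2059 on the knockout arrays. Tapbpl, a peptide editor, gave 1759 and 2661, and 2083 and 3182. Both were thus higher in CD8 cells under both labels, by 0.60 and 0.63 (Erap1) and 0.60 and 0.61 (Tapbpl), and were the 2 genes of the list past 1.5-fold. These make 18.2% of the 11 tested. Of all genes, 20.1% passed 1.5-fold in either direction on the wildtype arrays and 11.5% on the knockout arrays. Of the equally bright genes, 8.68% and 4.43% did.

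**Figure D4:**
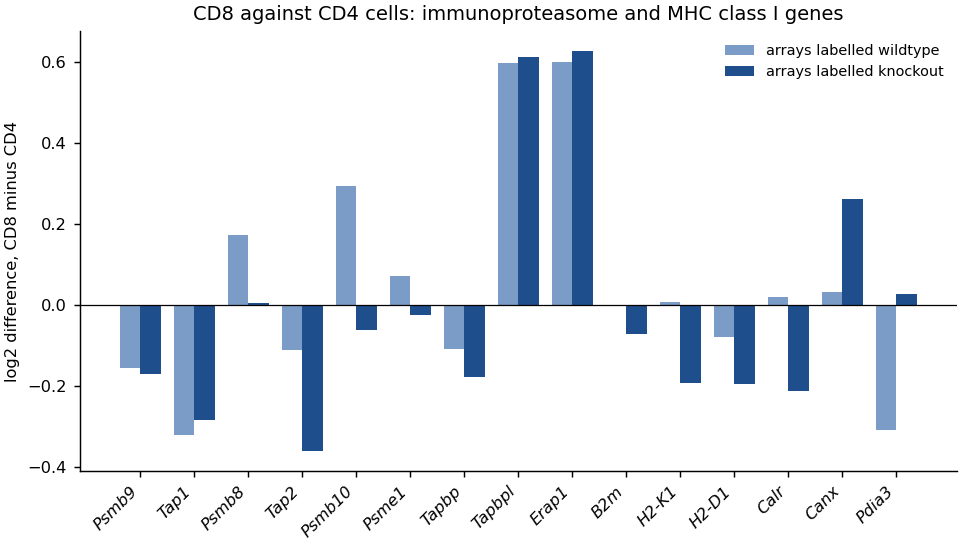
Log2 difference, CD8 minus CD4 (vertical axis), of 4 immunoproteasome genes and 11 MHC class I genes on the arrays labelled wildtype (light) and knockout (dark), 1 array per group. Psmb9 and Tap1 are below 0 under both labels, Erap1 and Tapbpl are near 0.60 under both, and Psmb8 and Psmb10 are above 0 on the wildtype arrays.

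Genes that build, regulate or feed the proteasome had no common direction. Of 9 assembly and control genes tested, of 12 listed, 1 passed 1.5-fold: Akirin2, an adaptor that brings proteasomes into the nucleus, differed by -0.61 in CD4 and 0.06 in CD8 cells, and is named here after its values were seen. In CD4 cells 21.9% of all genes and 11.4% of the equally bright ones passed 1.5-fold in either direction. Pomp, the chaperone of beta ring assembly, differed by -0.24 and -0.13. Nfe2l1, the transcription factor that raises proteasome genes when the complex is inhibited, differed by -0.32 and 0.25. Nfe2l2, which acts through antioxidant response elements, differed by 0.57 and 0.13, and Usp14, a deubiquitinase of the cap, by 0.26 and 0.28. Zfand2a, a zinc finger protein that binds the cap, differed by 0.19 and 0.09. Of 9 ubiquitin delivery genes tested, of 15 listed, Ube3a, a ubiquitin ligase that binds the proteasome, gave 4915 and 5598 on the knockout arrays (CD4, CD8) against 3266 and 4114 on the wildtype arrays. Its differences were 0.59 and 0.44, with a limma adjusted p of 0.150, and the list's medians were 0.02 and 0.04. The shuttle factors Ubqln1 and Ubqln2 differed by 0.14 and 0.10 in CD4 and by 0.17 and 0.29 in CD8 cells, and the ligase Ube3c by -0.09 and -0.33.

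Interferon-gamma response genes, which share an inducer with the immunoproteasome, differed in both directions. Of 13 tested, of 14 listed, 1 was higher and 1 was lower by 1.5-fold or more on the knockout arrays in both subsets (1.35% and 4.71% of all genes). Gbp2, a guanylate-binding protein, gave 6211 and 7379 (CD4, CD8) against 3510 and 3359, differences of 0.82 and 1.14 with a limma adjusted p of 0.053. Irf8, a transcription factor also expressed in B cells and dendritic cells, gave 298 and 309 against 912 and 2672, differences of -1.62 and -3.11 with an adjusted p of 0.081. Igtp differed by 0.40 and 0.65, and Iigp1 by 0.40 and 1.84, both immunity-related GTPases. The median range of the 13 over the 4 arrays was 2.13-fold, against 1.21-fold for the immunoproteasome genes. The 2 sets differ in brightness: Cxcl9, Cxcl10 and Ciita were below the floor on at least 1 array, while the immunoproteasome genes were far above it on all 4.

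The small shift between the labels depended on how the arrays were scaled. The deposited values are scaled to a common trimmed mean, and on that scale the median signal of the wildtype arrays was 235 (CD4) and 224 (CD8) against 189 and 193 on the knockout arrays. Centring each array on its median moved the median of all tested genes to 0.25 for CD4 and 0.17 for CD8 arrays, and that of the members to 0.47 and 0.29, which is 0.22 and 0.12 above all genes. It put 9 members in CD4 and 3 in CD8 cells at least 1.5-fold higher. The share of all genes that far up under this scaling was not counted, and all genes moved upward with it. Quantile normalization gave medians of 0.08 and 0.07 for the members and of 0.07 and 0.07 for the immunoproteasome. The 4 immunoproteasome genes stayed above 0 in both subsets under all 3 scalings, by as little as 0.01 for Psmb10 in CD8 cells with quantile normalization. Of the 45 members, 2 (CD4) and 4 (CD8) changed sign under quantile normalization, and 12 and 7 under median centring.

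**Figure D5:**
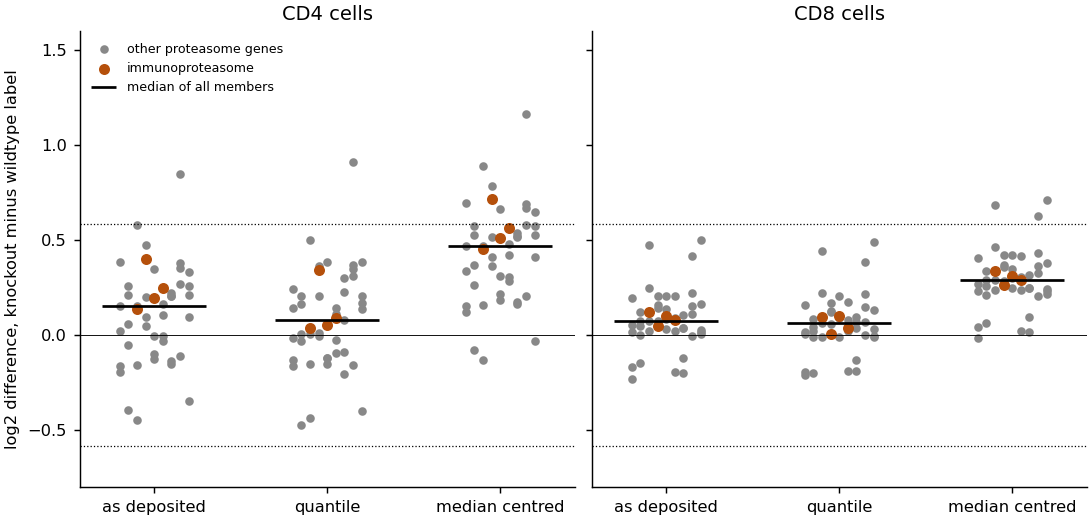
Log2 difference, knockout minus wildtype label (vertical axis), of each of 45 proteasome genes in CD4 cells (left) and CD8 cells (right) under 3 scalings of the arrays; orange points are the immunoproteasome, black lines the median of all 45 and dotted lines 1.5-fold. The median in CD4 cells is 0.15 as deposited, 0.08 with quantile normalization and 0.47 with median centring.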

How the data were processed

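RNA of sorted CD4 and CD8 spleen T cells was read on 4 arrays, 1 for each subset and genotype label. Per the submitters' processing notes, GCOS 1.4 and MAS5 were used; the sources used here name no other setting. The authors deposited linear signal intensities per probe set, without replicates. From the values, the 2% trimmed mean was 1000.4 to 1000.5 on each array, and the floor was exceeded by 58.4% to 61.6% of probe sets. Precision is limited by the number of arrays.

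Of 22626 non-control probe sets, those with a single symbol in the supplied platform annotation were used, and the one with the highest mean log2 signal stood for its gene. Signals were raised to the floor before log2. Differences are log2 values on that scale. With 1 array per group they have no p-value. Limma 3.58.1 in R 4.3.3 (lmFit, eBayes with trend, 1 residual and 5.11 prior degrees of freedom) was fitted on 8596 genes with Benjamini-Hochberg adjustment at 0.05. The fit was tested for the genotype label on simulated data. It called 82.5% and 80% of genes given log2 differences of 1 and -1, and 0.131% of those given 0. No difference between 0 and 1 in size was simulated, and the largest member difference was 0.85. The simulation therefore cannot show whether differences of the members' size would be called. Other scalings, floors, a pseudocount of 16, other choices of probe set and limma settings were tried. Other steps used Python 3.11.15 with pandas 2.3.3.

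The members and the gene lists were chosen with earlier results of these data known. Named genes are the immunoproteasome and its standard counterparts, the 2 highest and 2 lowest members of each role by mean difference, members below the floor, up to 4 of each other list with the largest difference shared by both subsets, and Tap1, Tap2, Tapbp, B2m, Pomp, Nfe2l1 and Cd44. Psmd5, Psmb4, Psmc3ip, Psme3ip1 and Akirin2 were named after their values were seen. Promoter windows and positions are from RefSeq on GRCm38.p6. Detection calls were not used.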

Additional observations from a re-analysis of the deposited data

Results flagged for a closer look

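Genotype label differences had opposite signs in the subsets for 13 of the 45 members, and for 2935 of all 8596 genes. Of the 13, a pair had at least 0.1 on the log2 scale on each side. Psmd14, the deubiquitinase of the cap, differed by -0.11 in CD4 and 0.11 in CD8 cells, and Psmg1, a chaperone of alpha ring assembly, by 0.11 and -0.20. With 1 array per group this contrast of the subsets was not tested. All 4 values lie within about the spread seen between probe sets of 1 gene, a pooled SD of 0.22 in CD4 cells, except that Psmg1 exceeds the 0.12 of CD8 cells.

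The probe set listed for both Psme2 and Psme2b lies outside the rule, since it names more than 1 gene. Its signal was 15221 (CD4, knockout label), 16308 (CD8, knockout label), 12629 (CD4, wildtype label) and 13970 (CD8, wildtype label), far above the floor on each array. The log2 differences between the labels were 0.27 (CD4) and 0.22 (CD8), the same direction as for Psme1, the partner of Psme2 in PA28.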

How the results depend on the processing

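Each group has 1 array and the labels give no replicate numbers, so no replicate could be left out or used as a block. The limma fit compared the labels with the subset as a term. Where a value has no test, a move was judged against the pooled SD between probe sets of 1 gene. Of the medians and counts reported, 109 values under the alternatives stayed within that SD or within 1.5 times the main count. The other 7 did not, all under median centring of the arrays. The tally does not measure robustness, because the lowest member signal was 786.5. At such signals the floor settings could not move the members' medians or fold counts, and the pseudocount could hardly move them. Only the limma counts were free to change there. Each of these settings gave 14 of the 109 values. Median centring gave knockout minus wildtype medians of 0.47 (CD4) and 0.29 (CD8) for all members. The medians were 0.54 and 0.30 for the immunoproteasome and 0.42 and 0.29 for the other members. Quantile normalization gave 0.07 for the immunoproteasome in CD4 cells and 0.08 for the others. Median centring also put 1 member, Psmb6, higher by 1.5-fold or more in CD4 and CD8 cells alike (0.69 and 0.63), where the scaling as deposited put 0. It moved the median of all tested genes to 0.25 (CD4) and 0.17 (CD8). The share of all genes that far up in both subsets under it was not counted, so the Psmb6 result cannot be weighed. Of 992 values of single named genes, 189 moved, 115 of them under median centring. The medians between the labels stayed above 0 in every setting, but the floor and pseudocount settings could not change this and median centring pushed genes upward. Quantile normalization, the mean of probe sets and leaving out _s_at and _x_at probe sets could have lowered them. There the medians of all members were 0.08, 0.11 and 0.14 in CD4 and 0.07, 0.07 and 0.08 in CD8 cells. The CD8 minus CD4 medians, near 0, changed sign in 4 cases. On the wildtype arrays the median of all members went from -0.0041 to 0.0043 with quantile normalization and to 0.07 with median centring. On the knockout arrays it went from -0.0075 to 0.0040 with the mean of probe sets, and that of the immunoproteasome from -0.04 to 0.0031 with quantile normalization. Limma called 0 members for either term in all 11 fits, with the lowest adjusted p between 0.122 and 0.504 for the genotype label and between 0.592 and 0.762 for the subset. At an unadjusted p under 0.05 it listed 25 members for the genotype label under median centring and 0 without the trend, against 3 in the other fits. The share of all genes at that level under median centring was not counted. What limits these results is the single array per group: no value carries a spread between animals, and differences below about 0.2 in CD4 cells are within the disagreement of probe sets of 1 gene.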
